A study of Mus musculus with 24 samples.

Results

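The miR-30 family was followed by both arms of its hairpins in 24 small RNA libraries. It was chosen by name as 10 of the 1073 mature miRNA names counted, 5 from 5p arms (mmu-mir-30a-5p, mmu-mir-30b-5p, mmu-mir-30c-5p, mmu-mir-30d-5p and mmu-mir-30e-5p) and 5 from 3p arms (mmu-mir-30a-3p, mmu-mir-30d-3p, mmu-mir-30e-3p, mmu-mir-30c-1-3p and mmu-mir-30c-2-3p). All 10 had reads in each of the 24 libraries and held 320583 of 5371420 reads, or 5.97%. Of the other family names, miR-30b-3p had 74 reads in 22 libraries and miR-30f had 2 reads, and neither was a member.

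The RNA came from exosome-enriched fractions (EEFs), preparations of small extracellular vesicles, of pooled hippocampi of male C57BL/6 mice (C57BL/6OlaHsd by the methods of the study) aged 6 to 9 weeks. Mice were injected into the basolateral amygdala with 0.3 μg kainic acid (KA), an agonist of kainate-type glutamate receptors that triggers status epilepticus, in 0.2 μl, or with PBS as control. Hippocampi were taken 24 h or 2 weeks later, and EEFs were prepared either by ultracentrifugation (UC) or with the ExoQuick precipitation kit (kit). Midazolam at 8 mg/kg was given 40 min after KA, and whether PBS mice received it too was not clear from the sources used here. Each of the 8 groups of method, treatment and time had 3 libraries.

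Each miRNA hairpin is cut by Drosha and Dicer into a duplex of a 5p and a 3p strand, and an Argonaute protein usually keeps one strand while the other is degraded. The seed near the 5′ end of the kept strand pairs with target mRNAs, so members that share a seed share most predicted targets. The miR-30 family is abundant in brain and many other tissues, and its 5p strands are the ones usually taken as the guide strands.

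Total reads per library ranged from 85436 to 169639 with UC and from 154884 to 676726 with the kit, so that 1 read corresponded to between 1.48 and 11.7 CPM (the reads of a miRNA scaled to a library total of 1000000). Markers of neurons were present in all libraries, with summed levels of 27768 to 39854 CPM with UC and 40498 to 76580 CPM with the kit. The KA library at 2 weeks with UC, replicate 3, and the KA library at 2 weeks with the kit, replicate 2, stood apart from the others in several members (a choice made after seeing the data), and a value named below that moved by over 1.5 times without the library concerned is also given without it. Each method was handled as a set of libraries of its own, so that method and library set cannot be told apart.

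The mature sequences show how close the members are to each other. Of the 10 members 7 were matched in the RefSeq (GRCm38.p6) table used here, and these are printed 5′ to 3′ with the seed (bases 2 to 8) in capitals.
miR-30a-5p: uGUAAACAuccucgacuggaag
miR-30e-5p: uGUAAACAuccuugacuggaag
miR-30c-5p: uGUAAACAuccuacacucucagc
miR-30a-3p: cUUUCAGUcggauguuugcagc
miR-30e-3p: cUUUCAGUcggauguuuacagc
miR-30c-1-3p: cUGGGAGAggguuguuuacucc
miR-30c-2-3p: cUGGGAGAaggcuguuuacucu

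The 3 5p sequences shared 1 seed and their first 12 bases, whereas the 3p sequences fell into 2 seed groups, miR-30a-3p with miR-30e-3p and miR-30c-1-3p with miR-30c-2-3p. Counted from 1 at the 5′ end, miR-30a-5p and miR-30e-5p differed by 1 base (C13U), and so did miR-30a-3p and miR-30e-3p (G18A). The 3p sequences of the miR-30c hairpins differed by 3 bases (G9A, U12C and C22U). How reads with 1 mismatch were assigned is not given in the sources used here, so the split between these close members is uncertain. The 5p sequence of miR-30c is the same in both hairpins, and its reads could not be assigned to either.

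In GRCm38.p6, miR-30a-5p lay at chr1:23272274-23272295 and miR-30a-3p at chr1:23272315-23272336, both on the plus strand, and GENCODE vM21 annotated no other gene over the Mir30a hairpin. The Mir30c-2 hairpin began 19432 bases further on, with miR-30c-2-3p at chr1:23291754-23291775, and overlapped an exon of the long non-coding RNA gene Gm27028. The hairpins Mir30e and Mir30c-1 lay on the minus strand of chromosome 4, 3072 bases apart by their starts and both in an intron of Nfyc, which codes for a subunit of the transcription factor NF-Y. There miR-30e-5p was at chr4:120772660-120772681, miR-30e-3p at chr4:120772618-120772639 and miR-30c-1-3p at chr4:120769546-120769567. The Mir30f gene lay on the opposite strand of Mir30e.

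The level of the family rested on 3 members. miR-30a-5p was the 4th most abundant miRNA by mean level with UC and the 6th with the kit, at 31740 ± 7845 CPM and 38459 ± 5410 CPM (SD, n = 12 libraries a method). Across the UC libraries it ranged from 21491 to 51572 CPM (median 30310), and across the kit libraries from 32338 to 50040 CPM (median 37839). The highest value of all was that of the UC library of KA mice at 2 weeks, replicate 3.

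miR-30e-5p was at 10633 ± 2225 CPM in UC libraries and at 11255 ± 1660 CPM in kit libraries. miR-30d-5p was at 9733 ± 2296 and 10827 ± 2193 CPM, and the ranges of these members overlapped. Within a library, the ratio of miR-30e-5p to miR-30d-5p was between 0.799 and 1.89 (median 1.08), so that neither was the higher in every library. The ratio of miR-30a-5p to miR-30e-5p was between 2.49 and 6.22 (median 3.00) and that to miR-30d-5p between 2.42 and 7.06, so that miR-30a-5p was the highest member in each of the 24 libraries.

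The other 5p members were far lower. miR-30c-5p was at 266 ± 81.0 CPM in UC libraries and 845 ± 565 CPM in kit libraries, and miR-30b-5p at 219 ± 50.7 and 509 ± 208 CPM. In reads, miR-30c-5p rested on 14 to 62 reads in a UC library and on 65 to 497 in a kit library. The ratio of miR-30c-5p to miR-30b-5p lay between 0.583 and 2.62, so that these members changed order from library to library.

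Of the sum of the 5p members, miR-30a-5p made up 60.0 ± 5.47% with UC and 62.1 ± 4.72% with the kit. miR-30e-5p held 20.4 ± 2.79% and 18.2 ± 2.13%, and miR-30d-5p 18.6 ± 3.04% and 17.5 ± 3.24%. The UC values include the UC library of KA mice at 2 weeks, replicate 3. Its shares were 76.1% for miR-30a-5p, 12.2% for miR-30e-5p and 10.8% for miR-30d-5p. Across the other UC libraries miR-30a-5p held 55.2 to 62.0%, miR-30e-5p 18.7 to 22.7% and miR-30d-5p 16.8 to 22.8%. The kit means of miR-30a-5p and miR-30e-5p lay just outside these ranges and that of miR-30d-5p inside. Single kit libraries fell within each range. miR-30c-5p made up 0.509 ± 0.132% of the sum in UC libraries and 1.31 ± 0.773% in kit libraries, and miR-30b-5p 0.425 ± 0.113% and 0.814 ± 0.312%, values given without a test of the shares.

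Among the 3p members, miR-30a-3p (591 ± 143 CPM in UC libraries and 481 ± 170 CPM in kit libraries) and miR-30e-3p (574 ± 272 and 609 ± 177 CPM) were of like level. miR-30c-2-3p had 137 ± 57.2 and 90.7 ± 27.3 CPM, miR-30c-1-3p 134 ± 63.9 and 45.1 ± 20.4 CPM, and miR-30d-3p 66.6 ± 25.0 and 112 ± 36.0 CPM. The last was counted with as few as 2 reads in a UC library and miR-30c-1-3p with as few as 7, so that single libraries of these members carry a large counting error. All 3p members together made up 0.150 ± 0.0389% of a UC library and 0.134 ± 0.0350% of a kit library, against 5.26 ± 0.989% and 6.19 ± 0.720% for the 5p members.

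**Figure D1:**
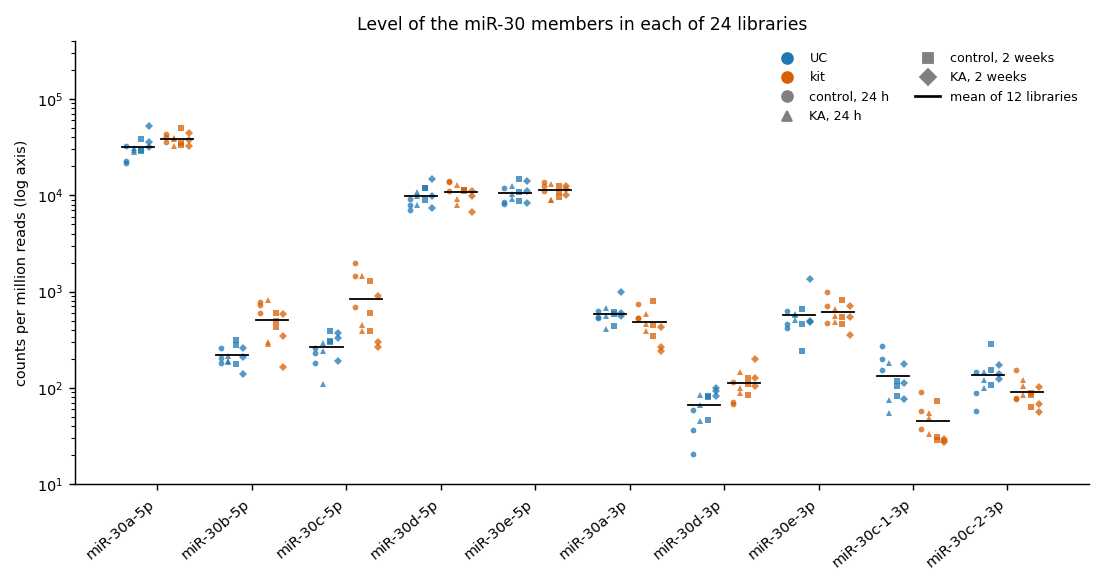
Level of each miR-30 member in CPM (log axis) in the 24 libraries, by method (colour) and by treatment and time (marker), with the mean of 12 libraries as a bar. miR-30a-5p sits between 21491 and 51572 CPM, above miR-30d-5p and miR-30e-5p, and the other 7 members lie at or below 1982 CPM.

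UC and kit libraries were compared to ask whether the preparation of the vesicles changes the family. Over all 397 miRNAs tested, 66.2% differed between the methods at an adjusted p under 0.05 (edgeR's quasi-likelihood test, Benjamini-Hochberg adjustment), 33.2% being higher and 33.0% lower with the kit. Of the 10 members 5 differed, 3 higher and 2 lower with the kit, and a difference from the share of all miRNAs was not tested. The median log2 difference (kit minus UC) was 0.08 over the members and -0.02 over all miRNAs.

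The members higher with the kit were the low 5p members and miR-30d-3p. miR-30c-5p rose by 1.49 ± 0.27 (log2, SE; adjusted p = 1.02e-05, edgeR), or 2.81-fold. Its UC libraries ranged from 109 to 386 CPM (median 276) and its kit libraries from 263 to 1982 CPM (median 647), and the ranges overlapped. miR-30b-5p was 2.18-fold higher (log2 1.12 ± 0.19, adjusted p = 4.93e-06 by edgeR), with 140 to 316 CPM (median 207) against 164 to 810 CPM (median 542). miR-30d-3p was 1.63-fold higher (log2 0.71 ± 0.21, adjusted p = 0.00329 by edgeR), with 20.9 to 101 CPM (median 73.0) against 68.9 to 199 CPM (median 108), but did not pass in control libraries alone (0.59, adjusted p = 0.0929, edgeR) or KA libraries alone (0.65, adjusted p = 0.0561, edgeR).

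Both 3p members of the miR-30c hairpins were lower with the kit. miR-30c-1-3p fell by 1.62 ± 0.23 on the log2 scale (adjusted p = 1.95e-07, edgeR). Its UC libraries lay between 54.4 and 271 CPM (median 116) and its kit libraries between 27.8 and 90.4 CPM (median 35.6). miR-30c-2-3p fell by 0.63 ± 0.21 (adjusted p = 0.00969, edgeR), with UC libraries between 58.2 and 289 CPM (median 132) and kit libraries between 56.7 and 155 CPM (median 84.7). The miR-30c-5p strand, which comes from the same hairpins, moved the other way.

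The abundant members did not pass the test. The log2 difference was 0.24 for miR-30a-5p (95% confidence interval -0.01 to 0.49, adjusted p = 0.0883, edgeR), 0.11 for miR-30d-5p (-0.14 to 0.37) and 0.04 for miR-30e-5p (-0.18 to 0.27). miR-30e-3p differed by 0.04 (-0.38 to 0.45). miR-30a-3p differed by -0.40 (-0.78 to -0.02) with an adjusted p of 0.0584 in edgeR's test, and its side of the threshold depended on the settings. It passed with DESeq2 (adjusted p = 0.0386) and limma-voom (adjusted p = 0.0418), and in 15 of the 24 fits that left out 1 library. In edgeR's test it did not pass with library size only (adjusted p = 0.107) or without a filter (adjusted p = 0.157). Without the 2 libraries that stood apart miR-30a-3p was at -0.26 (adjusted p = 0.138, edgeR). The difference was -0.20 in control libraries alone (adjusted p = 0.384, edgeR) and -0.77 in KA libraries alone (adjusted p = 0.0340, edgeR).

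No member separated the methods fully. The CPM ranges of UC and kit libraries overlapped for all 10 members. They did not overlap for 10.8% of the miRNAs tested, a share too low to set 10 members apart. Between control libraries alone, miR-30c-5p was higher with the kit by 1.66 ± 0.30 and between KA libraries by 1.16 ± 0.41 (log2, SE), and miR-30b-5p by 1.15 ± 0.22 and 0.97 ± 0.33. miR-30c-1-3p differed by -1.78 ± 0.31 and -1.63 ± 0.34. Without the UC and kit libraries that stood apart, the same 5 members passed, and miR-30a-5p passed as well with a log2 difference of 0.29 (adjusted p = 0.0191, edgeR).

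With libraries scaled to the sum of miR-92b-3p and miR-25-3p, which served to normalise the qPCR of the study, the median over all miRNAs moved to -0.45. Relative to that median miR-30c-5p was at 1.58, miR-30b-5p at 1.15, miR-30d-3p at 0.73, miR-30c-2-3p at -0.68 and miR-30c-1-3p at -1.62 (log2, kit minus UC). Under this scaling the unshifted differences of miR-30a-5p, miR-30d-5p, miR-30e-5p and miR-30e-3p turned negative, and miR-30d-3p no longer passed.

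Single arms of other families were listed for comparison. Of 9 let-7 5p members (miR-98-5p included), which repress growth-promoting genes, 8 rose and 1 fell with the kit, with a median log2 difference of 1.45 and a range from -0.33 (let-7b-5p) to 2.23 (let-7f-5p). The 3 members of miR-29 3p all rose (median 1.63), and both miR-26 5p members rose (median 1.25). Of the 5 miR-30 5p members 2 rose and 0 fell, with a median of 0.24 and all estimates above 0 (0.04 to 1.49), and of the 5 3p members 1 rose and 2 fell, with a median of -0.40. Differences between families were not tested.

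Cell type markers also moved between the methods. Both endothelial markers rose, with a summed level of 218 to 609 CPM in UC libraries and 2101 to 3242 CPM in kit libraries, and 3 of 4 neuronal markers rose. Of 3 oligodendrocyte markers 2 fell, with a sum of 6137 to 10956 CPM in UC libraries and 1760 to 2255 CPM in kit libraries. Of the microglial and leukocyte markers 1 of 3 tested fell (sum 1757 to 5397 and 677 to 7625 CPM), and of the choroid plexus markers 1 of 2 tested rose (295 to 2867 and 658 to 3206 CPM). Erythrocyte markers summed to 0 to 11.3 and 0 to 184 CPM, and 0 of 4 passed the filter. The part of these cell types in the differences of the miR-30 members was not tested, and fewer vesicles of a cell type and less RNA per vesicle cannot be told apart in such preparations.

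**Figure D2:**
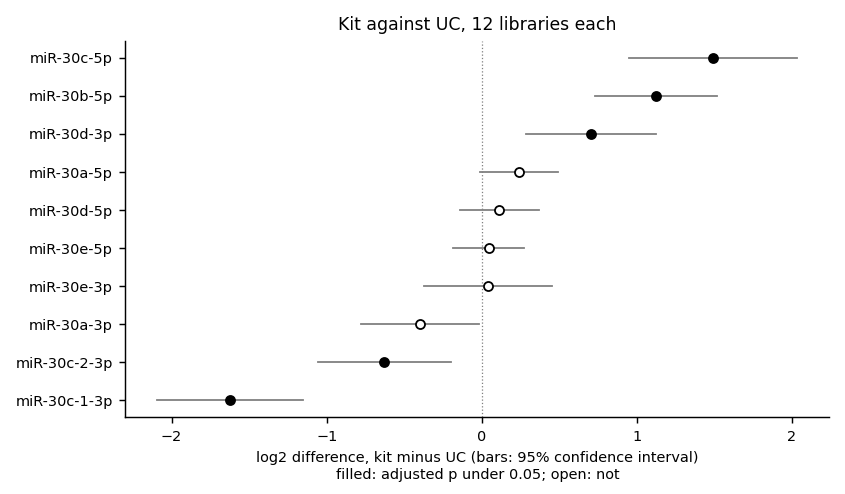
Log2 difference between kit and UC for each miR-30 member, from edgeR's fit of all 24 libraries, with 95% confidence intervals (x axis, members on the y axis). Filled circles passed an adjusted p of 0.05, and miR-30c-5p at 1.49 and miR-30c-1-3p at -1.62 are farthest apart.

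The ratio of 5p to 3p reads within a library does not depend on the scaling of libraries, and it describes which strand of a hairpin is found. Over all members, 5p reads made up 97.2 ± 0.558% in UC libraries and 97.9 ± 0.380% in kit libraries. For miR-30a, the 5p to 3p ratio had a median of 55.3 (36.4 to 77.1) over UC libraries and 81.8 (54.0 to 155) over kit libraries. For miR-30d, it was 150 (87.9 to 336) and 94.2 (33.3 to 201), and for miR-30e 20.7 (6.07 to 35.8) and 17.1 (13.5 to 35.4).

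The miR-30c hairpins, counted as 1 since their 5p strand is shared, differed from the others in having about as many 3p as 5p reads with UC. There the median ratio was 0.897 (0.542 to 1.82), and with the kit it was 5.45 (2.54 to 10.8). All 12 kit libraries were above all 12 UC libraries, a separation seen in 11.3% of the hairpins tested.

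Between the methods, 72.2% of the 97 hairpins tested differed in arm ratio at an adjusted p under 0.05 (edgeR, arm by method term), with a median log2 difference of 0.61 (kit minus UC) over all hairpins. The ratio of miR-30c was higher with the kit by 2.42 ± 0.29 (log2, SE, adjusted p = 2.70e-09, edgeR), or 5.35-fold. That of miR-30a was higher by 0.65 ± 0.17 (adjusted p = 9.19e-04, edgeR), close to the median hairpin. That of miR-30d was lower by 0.62 (difference -0.62 ± 0.25, adjusted p = 0.0270, edgeR), against the direction of the median hairpin, and lost this call when any of 3 libraries was left out: the UC library of KA mice at 2 weeks, replicate 1 (-0.55), or the kit library of KA mice at 24 h, replicate 2 (-0.54), or at 2 weeks, replicate 2 (-0.47). That of miR-30e differed by -0.05 (95% confidence interval -0.51 to 0.41). The ratio of miR-30b was higher by 3.60 ± 0.45 (adjusted p = 6.22e-09, edgeR), and its 3p strand had at most 11 reads in a library.

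Between KA and control, 0 of the 97 hairpins passed in any of the 4 comparisons of arm ratios (0% each, edgeR and limma), and no miR-30 hairpin had an unadjusted p under 0.05. The estimates of the miR-30 hairpins lay between -1.79 and 0.69 on the log2 scale, the lowest being miR-30b with UC at 2 weeks. The UC library of KA mice at 2 weeks, replicate 3, had the lowest miR-30e ratio (6.07), with 1365 CPM of miR-30e-3p.

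**Figure D3:**
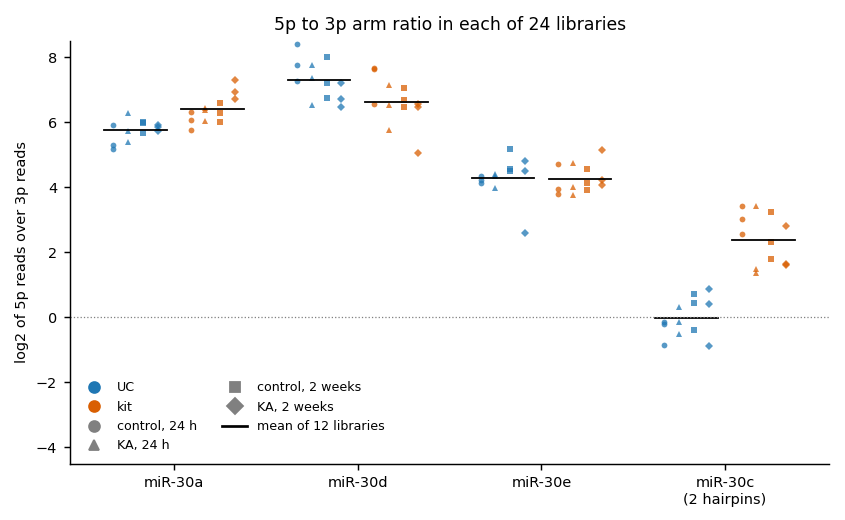
Log2 of the ratio of 5p to 3p reads for 4 miR-30 hairpin groups in the 24 libraries, by method (colour) and by treatment and time (marker), with the mean of 12 libraries as a bar. For miR-30c all 12 kit libraries (lowest ratio 2.54) lie above all 12 UC libraries (highest ratio 1.82), while for miR-30a, miR-30d and miR-30e the methods overlap.

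KA and control were compared within each method and time to ask whether seizures change the miRNAs of EEFs. None of the 10 members passed an adjusted p of 0.05 in any of the 4 comparisons with edgeR, DESeq2 or limma-voom. Among all miRNAs, 0.476% passed with UC at 24 h, 0.952% with UC at 2 weeks, and 0% with the kit at 24 h and at 2 weeks. With the replicate number as a block, 2 of the 520 miRNAs passed with the kit at 2 weeks, and no member. At an unadjusted p under 0.05, the level used in the study, 1 member was found with UC at 24 h (2.86% of all miRNAs), 1 with UC at 2 weeks (7.86%), none with the kit at 24 h (4.62%) and 1 with the kit at 2 weeks (2.69%).

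With UC at 24 h this member was miR-30c-1-3p, with 271, 199 and 153 CPM in the controls and 75.2, 54.4 and 181 CPM after KA. The KA library with 181 CPM lay within the range of the controls. The log2 difference was -1.10 ± 0.48 (adjusted p = 1.00, edgeR), from 7 to 27 reads in a library. With each UC library left out in turn it ran from -1.74, without that KA library, to -0.85.

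With UC at 2 weeks it was miR-30e-3p, with 458, 242 and 655 CPM in the controls and 493, 486 and 1365 CPM after KA. Only KA replicate 3 was above all controls, while each KA library was above the control of the same replicate number. The log2 difference of 1.03 ± 0.38 (adjusted p = 0.376, edgeR) dropped to 0.14 without that library. Scaled to miR-92b-3p and miR-25-3p it was 0.021, with the median of all miRNAs at -0.54. In the same comparison 1 of 3 microglial and leukocyte markers tested, miR-146a-5p, was higher after KA (log2 1.21 ± 0.27, adjusted p = 0.0150, edgeR), and so was 1 of 2 choroid plexus markers, miR-204-5p (1.88 ± 0.43, adjusted p = 0.0150, edgeR). The summed microglial and leukocyte level was 2069 to 2762 CPM in controls and 4349 to 5397 CPM after KA, and that of the choroid plexus markers 295 to 699 and 671 to 2867 CPM. Their part in the level of miR-30e-3p was not tested.

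With the kit at 2 weeks it was miR-30a-3p, with 346, 451 and 789 CPM in the controls and 267, 239 and 429 CPM after KA, so that the groups overlapped, while KA was below the control of the same replicate number in 3 of 3 pairs. The log2 difference was -0.76 ± 0.33 (adjusted p = 0.998, edgeR), and -0.42 without control replicate 3, and with the replicate number as a block it was -0.74 (adjusted p = 0.995, edgeR). With UC at 2 weeks miR-30a-3p had 578, 442 and 609 CPM in the controls and 594, 552 and 980 CPM after KA. There each KA library was above the control of the same replicate number, opposite to the kit.

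For miR-30a-5p, the most abundant member, the intervals below hold for edgeR's main fit and do not cover the choice of scaling. miR-30a-5p differed by 0.13 (95% confidence interval -0.40 to 0.66) with UC at 24 h, 0.45 (-0.08 to 0.98) with UC at 2 weeks, 0.03 (-0.44 to 0.49) with the kit at 24 h and -0.04 (-0.51 to 0.43) with the kit at 2 weeks, in log2. The value with UC at 2 weeks was 0.03 without KA replicate 3. Under the scaling to miR-92b-3p and miR-25-3p it was -0.29, below its interval, with the median of all miRNAs at -0.54. At 2 weeks with the kit, miR-30d-5p had 11368, 11269 and 11171 CPM in the controls and 9846, 6651 and 11133 CPM after KA. These groups did not overlap, with the highest KA library close to the lowest control, and the log2 difference was -0.33 ± 0.25 (adjusted p = 0.998, edgeR), or -0.11 without KA replicate 2.

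**Figure D4:**
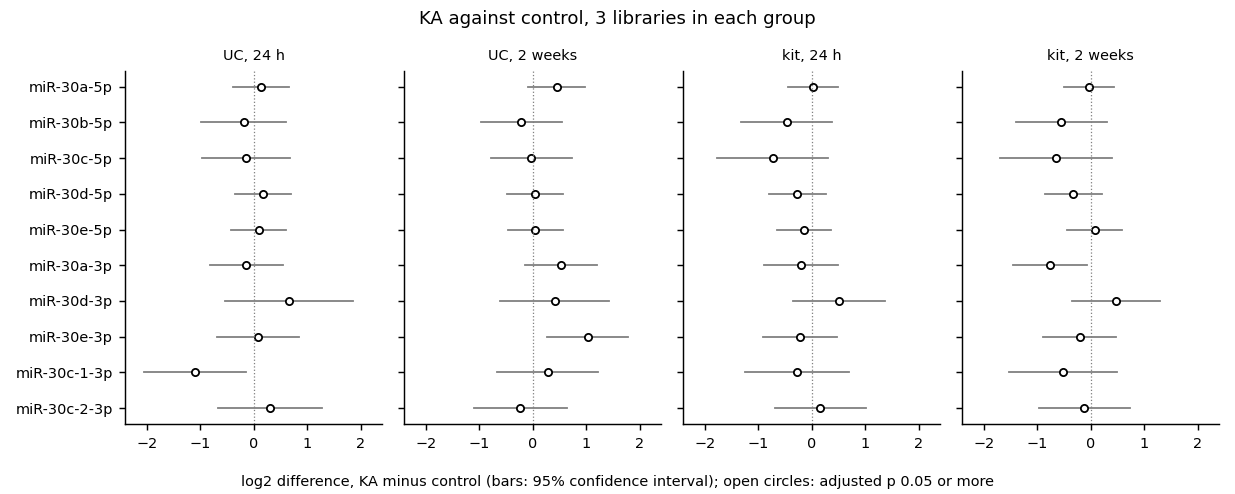
Log2 difference between KA and control for each miR-30 member in the 4 comparisons of method and time, with 95% confidence intervals (x axis, members on the y axis, 3 libraries a group). All 40 circles are open, since no member passed an adjusted p of 0.05.

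The 2 times were compared within controls and within KA mice. None of the members passed adjustment with edgeR, DESeq2 or limma-voom, and among all miRNAs 0% passed in UC controls, 0.952% in UC libraries of KA mice, 0% in kit controls and 0.192% in kit libraries of KA mice. With the replicate block the calls among all miRNAs in UC libraries of KA mice went from 4 to 9, with no member among them. At an unadjusted p under 0.05, 1 member was found in UC controls (4.05% of all miRNAs), 1 in UC libraries of KA mice (10.5%), and none in kit controls (3.65%) or kit libraries of KA mice (3.08%).

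In UC controls miR-30c-1-3p had 271, 199 and 153 CPM at 24 h and 104, 118 and 81.9 CPM at 2 weeks, and the groups did not overlap. The log2 difference was -0.997 ± 0.46 (adjusted p = 0.988, edgeR). These 24 h controls were also those against which miR-30c-1-3p was lower after KA.

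In UC libraries of KA mice miR-30a-5p had 31138, 28071 and 29483 CPM at 24 h and 35957, 31693 and 51572 CPM at 2 weeks, again without overlap. The log2 difference of 0.58 ± 0.26 (adjusted p = 0.401, edgeR) dropped to 0.26 without replicate 3 of the 2 weeks group, and was -0.16 under the scaling to miR-92b-3p and miR-25-3p, which moved the median of all miRNAs to -0.54. Over the 8 KA and time comparisons together, 6 of 80 member tests (7.50%) had groups whose CPM ranges did not overlap, beside 8.32% of all tests.

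Whether the KA effect differed between the times or between the methods was tested by interaction terms. No member passed adjustment with edgeR, DESeq2 or limma-voom, and among all miRNAs 0.476% passed between times with UC, 0% between times with the kit, and 0% between methods at 24 h and at 2 weeks. Between times with UC, miR-30c-1-3p had an unadjusted p under 0.05 (1.37 ± 0.67 in log2, adjusted p = 0.711, edgeR). Between methods at 2 weeks, miR-30a-3p (-1.23 ± 0.48, kit minus UC) and miR-30e-3p (-1.16 ± 0.55) did, both with an adjusted p of 0.996 by edgeR. The share of all miRNAs at this unadjusted level was not counted for the interactions, so nothing is read from the number of members. Without the UC library of KA mice at 2 weeks, replicate 3, miR-30e-3p was at -0.48 and miR-30a-3p at -0.93. Under the scaling to miR-92b-3p and miR-25-3p the values were 0.89 for miR-30c-1-3p, -0.48 for miR-30a-3p and -0.19 for miR-30e-3p.

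The deposited tables also list reads that differ from the annotated sequence, by bases changed or added at the ends or by A-to-G changes inside. In the miR-30a, miR-30d and miR-30e hairpins the altered share was higher for the 3p than for the 5p arm, a description with no test. Over the libraries the altered share was 22.0 ± 3.87% (SD, n = 24) for miR-30a-3p, 20.8 ± 11.0% for miR-30d-3p and 20.0 ± 6.66% for miR-30e-3p. It was 3.77 ± 0.505% for miR-30a-5p, 5.29 ± 0.803% for miR-30d-5p and 7.58 ± 1.01% for miR-30e-5p. For these hairpins the summed reads showed the same order of the arms, and of summed reads the shares were 7.20% for miR-30c-1-3p, 11.2% for miR-30c-2-3p, 5.89% for miR-30c-5p and 3.92% for miR-30b-5p. The share of miR-30c-1-3p was thus below the 7.30% of miR-30e-5p, and with UC, where it was 4.88%, also below the 5.50% of miR-30d-5p.

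The end positions could be read from the sequences. Position 0 was taken as the last base of the annotated mature miRNA, since in this reading none of 10132 reads with a single changed or added base (miR-30a and miR-30e, both arms) matched the base of the hairpin, against 58.6% and 61.9% when the position was moved by 1 base either way. The commonest single-base change in the 3p strands of miR-30a, miR-30d and miR-30e was a single U in place of the last base, a C in the printed miR-30a-3p and miR-30e-3p, with 13.9%, 14.2% and 8.00% of their reads. In the 5p strands it was a single U at position 3, after 2 further hairpin bases, with 1.06% of miR-30a-5p, 2.59% of miR-30d-5p and 4.46% of miR-30e-5p reads. Terminal uridylyl transferases are enzymes known to add single U to miRNA ends, and their part in these reads was not tested.

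Between UC and kit, 16.7% of the 215 miRNAs tested differed in the ratio of altered to unaltered reads (edgeR, adjusted p under 0.05), and of the 10 members this was 1, miR-30e-3p. Its altered share was 9.59 to 25.7% (median 14.6%) with UC and 13.5 to 35.2% (median 24.3%) with the kit, and the log2 difference of the ratio was 0.68 ± 0.19 (adjusted p = 0.0127, edgeR). The ranges overlapped. For miR-30a-5p the difference was 0.00 (95% confidence interval -0.17 to 0.17).

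Much of the miR-30e-3p difference lay in 1 class of reads. Patterns of 5 or more bases made up 3.21 ± 2.14% of its reads in UC libraries and 8.98 ± 5.02% in kit libraries, and without them the altered share was 12.9 ± 4.09% and 14.8 ± 4.36%. All 221 of these reads departed from the mature sequence 3 to 6 bases before its last base, and 88.2% of their listed bases were A or G, in 55 different patterns. miR-30c-5p carried the same class, in 1.30 ± 2.28% of reads with UC and 4.53 ± 4.40% with the kit. In the other 3p members such reads were few. Departures 3 or more bases before the last base made up 12 of 13 in miR-30c-2-3p and 10 of 11 in miR-30a-3p. They made up 4 of 4 in miR-30d-3p and 2 of 2 in miR-30c-1-3p. In miR-30c-2-3p the class held 3.27 ± 5.39% of reads with UC and 2.65 ± 2.89% with the kit. Such reads leave the miRNA's sequence before its end, and whether they come from these hairpins was not tested.

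A-to-G changes were rare in the members. There were 200 such reads at 19 positions of 7 members, or 0.0624% of all member reads, and no position reached more than 0.184% of its member's reads.

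**Figure D5:**
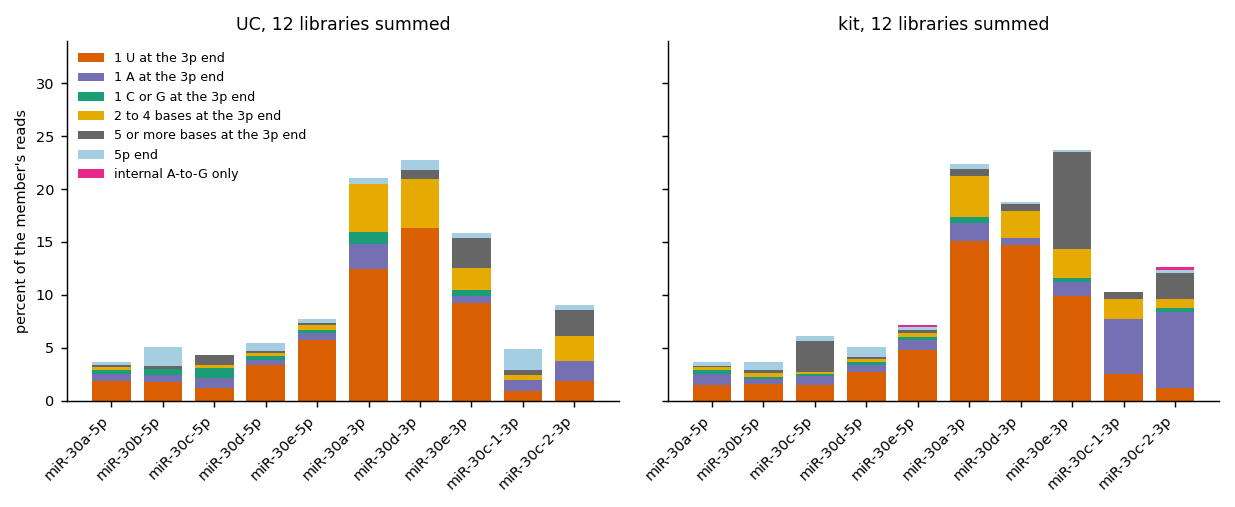
Percent of each member's reads (y axis) that differed from the annotated sequence, split by kind of change, with the 12 UC libraries summed on the left and the 12 kit libraries on the right. A single U forms the larger part of the bars of miR-30a-3p and miR-30d-3p, and patterns of 5 or more bases are larger for miR-30e-3p and miR-30c-5p with the kit.

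Over the 24 libraries, centred within method, the members did not vary as one. Pearson's r between members on log2 CPM ran from -0.56 (miR-30b-5p with miR-30d-3p) to 0.70 (miR-30a-3p with miR-30e-3p). The UC library of KA mice at 2 weeks, replicate 3, had the highest miR-30a-3p (980 CPM) and miR-30e-3p (1365 CPM). The kit library of KA mice at 2 weeks, replicate 2, had the highest miR-30d-3p (199 CPM). Its miR-30b-5p (164 CPM) was the lowest among kit libraries. Values of r without these libraries are not given, and treatment and time were not removed. Libraries of a method also differed in depth and composition, and these values are descriptive. The summed 5p level followed miR-30a-5p (r = 0.94), its largest part, and miR-30e-5p less (r = 0.49).

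Among 139 other miRNAs with at least 10 reads in every library, those most like the summed 5p level were miR-9-5p (r = 0.79), miR-16-5p (r = 0.78), miR-126a-5p (r = 0.76), miR-191-5p (r = 0.75) and miR-411-5p (r = 0.72), against a median r of 0.13. All are given by the size of r over 24 libraries alone.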

How the data were processed

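The study sequenced small RNA of RNase A-treated EEFs after small RNA library preparation. The authors trimmed and counted the reads with the Chimira web server against miRBase hairpins, and the deposited values are raw read counts per mature miRNA and library, without normalization, beside counts per modification pattern. Both tables gave equal totals in 11992 of 11992 pairs of miRNA and library, once 11791 reads listed a second time were left out. How reads that match several hairpins were assigned is not given in the sources used here.

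The members and lists were chosen with earlier results of these data known. Groups followed the labels, which describe replicates as biological samples. miRNAs with CPM over 1 in at least 6 libraries of a method entered edgeR 4.0.16 under R 4.3.3 (glmQLFit and glmQLFTest after TMM scaling), with 12 libraries of a method in a fit or all 24 for UC against kit, and p-values were adjusted over all miRNAs by the Benjamini-Hochberg method. SEs were derived from p and the degrees of freedom. Arm ratios and altered reads were tested with 2 columns per library, for hairpins or miRNAs with at least 10 reads of each kind summed per method. Tests were two-sided and were tested on simulated data first. limma 3.58.1, DESeq2 1.42.0, other scalings and filters, the replicate block and each library left out were alternatives. Replicate numbers were checked for pairing by the correlation of the deviations of same-numbered libraries from their group means over 146 miRNAs, since the labels name no shared source. All 3 correlations were over 0.1 between KA and control at 2 weeks (UC 0.14 to 0.31, kit 0.50 to 0.63) and between times in UC libraries of KA mice (0.21 to 0.44), and not in the other within-method comparisons, where the lowest was -0.48. Between UC and kit all 3 were over 0.1 at 2 weeks (controls 0.28 to 0.48, KA 0.24 to 0.58), but not at 24 h. UC against kit was fitted without the replicate block, and the fit with it is given below. Replicates differed by more than sampling noise (chi-square per degree of freedom at least 5.12). The named miRNAs were the members, their relatives, the comparison lists, the 5 miRNAs most like the summed 5p level, and the reference miRNAs. Intervals cover 95%.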

Additional observations from a re-analysis of the deposited data

How the results depend on the processing

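In the comparison of UC and kit, 5 members passed, and 4 to 6 did under the other settings and 5 to 6 with each library left out. The counts of 0 for KA, time, interactions and KA arm ratios held under all settings run. With the sum of miR-92b-3p and miR-25-3p as scale the log2 differences of miR-30a-5p (-0.16), miR-30d-5p (-0.36), miR-30e-5p (-0.41) and miR-30e-3p (-0.32) turned negative, as did miR-30a-5p between times in UC libraries of KA mice (-0.16). miR-30e-5p was at -0.027 with the stricter filter (at least 10 reads in 6 libraries), in controls alone and in KA libraries alone, and at -0.038 without the 2 libraries that stood apart (chosen after seeing the data), miR-30e-3p at -0.022 with the stricter filter and -0.36 in KA libraries, and miR-30d-5p at -0.093 in KA libraries. With each library left out miR-30e-5p ran from -0.041 to 0.11, miR-30e-3p from -0.072 to 0.21 and the miR-30e arm ratio from -0.22 to 0.018. The cause was not tested.

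Of the 24 libraries, 15 correlated best with their own number, a count that was not tested. The correlations of same-numbered libraries ran from -0.48 to 0.63. With the replicate block 6 members passed between UC and kit (miR-30a-3p added, adjusted p = 0.0330, edgeR), beside 266 of all 397 miRNAs. In arm ratio 4 miR-30 hairpins passed between UC and kit, beside 70 of all 97, and 0 for KA. In altered reads 1 member passed, beside 43 of all 215 miRNAs. In each KA and time comparison and interaction 0 members passed. Over all miRNAs the block moved the calls between KA and control from 2 to 4 with UC at 24 h, from 4 to 6 with UC at 2 weeks and from 0 to 2 with the kit at 2 weeks, and from 4 to 9 between times in UC libraries of KA mice. The miR-30b hairpin could not be tested with at least 100 reads of each arm. Depth limits the low members: 3 reads corresponded to 4.43 to 35.1 CPM in a library.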
